A study of Bos taurus with 6 samples.

Results

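Genes of the cilium were examined in granulosa cells, the steroid-producing cells of the ovarian follicle wall, from cattle. Members were all genes on the array whose symbol named an axonemal dynein (DNAH, DNAI, DNAL), a radial spoke protein (RSPH), a tektin (TEKT), a central pair protein (SPAG6, SPAG16, SPAG17), an intraflagellar transport protein (IFT) or a Bardet-Biedl syndrome protein (BBS), together with FOXJ1, KIZ and TUBB4B. After outdated symbols were updated, this rule found 52 genes on 70 of the 43794 gene probes, of which 21790 carried a symbol. The motile axoneme class held 28 genes, the transport class (IFT and BBS) held 22, and KIZ and TUBB4B belonged to neither. Of these, 41 genes on 50 probes were bright enough to be compared, among 27429 genes and unnamed probes in all. Matching the symbols as the platform table prints them found 41 genes on 49 probes and missed KIZ and TUBB4B, which that table lists as PLK1S1 and TUBB2C.

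A cilium is a microtubule-based projection that grows from a basal body, a modified centriole. Motile cilia, carried in numbers by epithelia such as that of the oviduct and switched on by the transcription factor FOXJ1, bend through dynein arms, radial spokes and a central pair of microtubules. Primary cilia, of which most cells including granulosa cells can carry a single one, lack that machinery and act as antennae for signals such as Hedgehog. Both kinds are built and emptied by intraflagellar transport: complex B moves cargo to the tip, complex A brings it back, and the BBSome carries membrane proteins.

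All cows were multiparous Holsteins whose ovaries were stimulated with gonadotropins, and whose pre-ovulatory follicles were coasted, that is, left without follicle stimulating hormone (FSH), for 68 hours after its last injection until the cells were aspirated at ovum pick-up. The labels also mark all samples as in vivo and as linked to in vitro embryo production. Cells of 3 cows treated with cetrotide (cetrorelix, an antagonist of gonadotropin releasing hormone) were set against cells of 3 control cows, to learn how the treatment altered the transcripts of such follicles. RNA of both conditions was hybridised together on each of 6 arrays, with cetrotide RNA in Cy5 on the 3 arrays of slide 1 and in Cy3 on the 3 arrays of slide 2. Arrays of the same area number were averaged over the slides into 3 dye-swap replicates, numbered by area, and the labels do not say which cow is on which array.

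A spot was called above background when it outshone 95% of the 153 negative controls on the same array in the same dye (their 95th percentile). That limit lay between 84.5 and 299.7 intensity units, and 53.5% to 82.5% of gene probes exceeded it per array and RNA. Of 12 granulosa markers with a probe, 10 were above background for control RNA on at least 4 arrays, among them INHA, INHBA, SERPINE2, FSHR and CYP19A1. FOXL2, which marks the lineage, was above it for control RNA on 0 arrays, and the best LHCGR probe on 2.

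Motile axoneme genes lay mostly at the edge of detection, and transport genes well above it. For control RNA, 6 of the 28 motile genes (21.4%) were above background on all 6 arrays, against 21 of the 22 transport genes (95.5%) and 62.8% of all 15216 named genes. For cetrotide RNA the same counts were 6, 21 and 63.4%, but the motile genes were not all the same. For cetrotide RNA they were DNAH11, DNAL1, DNALI1, RSPH3, TEKT1 and FOXJ1. Of these, DNALI1, TEKT1 and FOXJ1 were above background on 5 arrays for control RNA. The 6 motile genes for control RNA were the dynein chains DNAH11 and DNAL1, the spoke proteins RSPH3, RSPH9 and RSPH10B, and SPAG6 of the central pair. Their number depended on the limit: with the 99th percentile 2 were left, DNAL1 and RSPH3, with 1.5 times the median of the negative controls only RSPH3, and with median pixel intensities DNAH11, DNAL1 and RSPH3.

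Counted on at least 4 of 6 arrays, 18 motile genes (64.3%) passed for control RNA and 13 (46.4%) for cetrotide RNA, beside 78.6% and 78% of all named genes. Of the transport genes, 21 passed for each RNA. The dynein chains DNAH7 and DNAL4 and the tektins TEKT3 and TEKT4, which line the doublet microtubules, were at 0 arrays for both RNAs. Also too dim to be compared were DNAH2, DNAI1, DNAI2, SPAG16, SPAG17 and RSPH1. BBS9, a BBSome subunit, was the only transport gene not kept: it was above background for control RNA on 3 arrays and for cetrotide RNA on 0. Brightness separated the classes further, since 4 of 35 motile probes (11.4%) ever exceeded 2 times the limit, against 21 of 33 transport probes (63.6%) and 44.4% of all probes with a symbol. Probes differ in how well they bind their target, so these shares describe the probes as well as the genes.

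**Figure D1:**
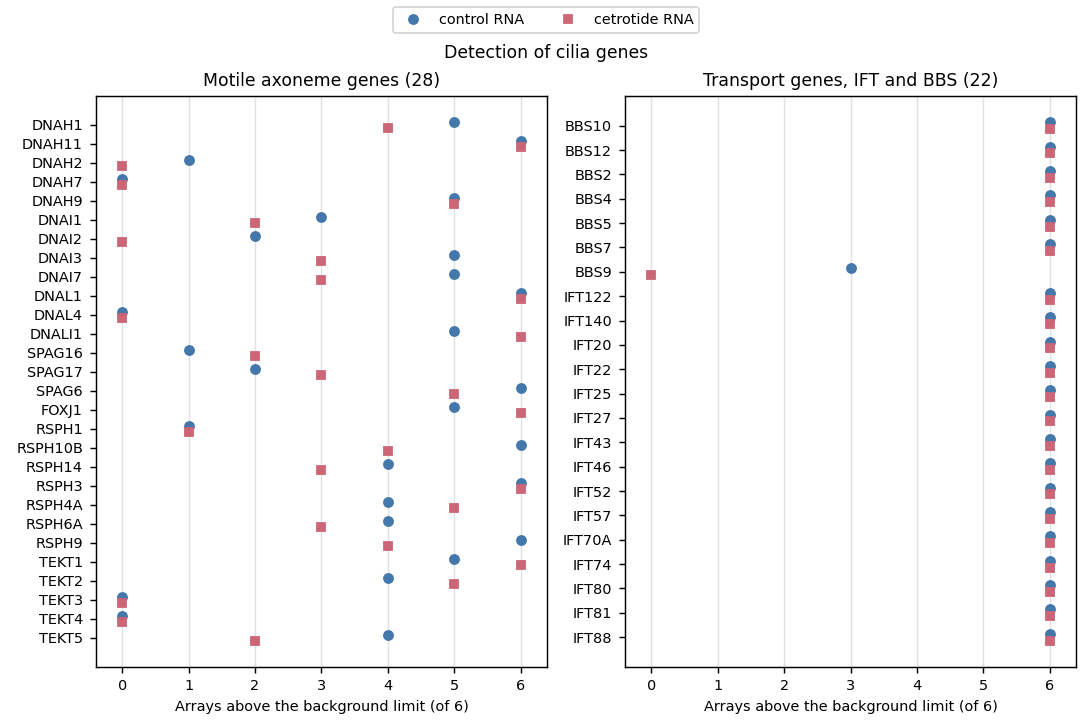
Number of the 6 arrays (x axis) on which each cilia gene exceeded the background limit, for control RNA (circles) and cetrotide RNA (squares), taking a gene's best probe. Motile axoneme genes (left, 28) spread from 0 to 6 arrays, while 21 of the 22 transport genes (right) stand at 6 for both RNAs.

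FOXJ1, the factor that drives the motile cilium program, was at the limit for both RNAs. Its control RNA gave 102.4, 281 and 207.3 intensity units on slide 1 and 182.4, 185.9 and 133.3 on slide 2, in the order of the replicates. Its cetrotide RNA gave 100.3, 181.4 and 188.2 on slide 1 and 300.2, 228 and 237.6 on slide 2. These are raw values, not made comparable between arrays and dyes. Divided by the limit of their own array and dye, they lay between 0.94 and 1.21 for control and between 1 and 1.13 for cetrotide, so that both RNAs overlapped. The normalised log2 ratio of cetrotide over control was 0.02 ± 0.06 (SD, n = 3), with an adjusted p of 0.921 by limma. It was below 0 on all 3 arrays of slide 1 and above 0 on all 3 of slide 2.

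No cilia gene differed between cetrotide and control at an adjusted p under 0.05 in limma's fit to the 3 averages, where 0 of all 27429 tests passed as well. At an unadjusted p under 0.05, 9 of the 41 cilia genes were lower with cetrotide and 4 were higher, beside 6.46% lower and 8% higher of all tests. On all 6 arrays 9 were lower and 1 higher, beside 7.41% and 7.86% of all tests. Of these 9 lower genes, DNAI7 was kept through control RNA alone, the RNA in which it was brighter. Without replicate 1 the count of lower genes was 5 and that of higher genes 1, beside 2.77% and 4.27% of all tests in that setting. Without replicate 2 the count of higher genes was also 1, beside 6.93% of all tests. Because arrays of the same area deviated together, a fit to all 6 arrays with the area as a replicate block was set beside it. In that fit 4 cilia genes passed on the lower side and 0 on the higher, beside 0.962% and 1.5% of all tests. In these bulk cells, fewer cells of a type and less RNA per cell cannot be told apart.

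RSPH3, the radial spoke protein that in human cells also anchors protein kinase A, had the smallest p of the members. Its control RNA gave 472.8, 593.1 and 614.4 intensity units on slide 1 and 555.6, 496.9 and 606.8 on slide 2. Its cetrotide RNA gave 218.7, 301.6 and 283.7 on slide 1 and 428.9, 322.1 and 370.3 on slide 2. Every array had the control RNA brighter and the raw values of the RNAs did not overlap. Its spots were 2.27 to 5.6 times the limit for control and 1.43 to 2.46 times for cetrotide. After normalisation the log2 ratio was -0.83, -0.70 and -0.83 on slide 1 and -1.16, -1.27 and -1.29 on slide 2. The mean was -1.01 ± 0.04 (SD, n = 3), 2.02-fold lower, with an adjusted p of 0.178 by limma and of 0.0184 by limma with the replicate block. The SD is over averages of both slides and leaves out the difference between slide 1 (-0.79) and slide 2 (-1.24).

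The other 5 spoke genes kept had mean log2 ratios from -0.07 to 0.02. They were RSPH4A, RSPH6A and RSPH9 of the spoke head, RSPH10B and RSPH14, and RSPH9 had a second kept probe at -0.09. RSPH3 was the only spoke gene at an unadjusted p under 0.05.

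Among the 7 axonemal dynein genes kept, mean log2 ratios ran from -0.27 for DNAL1, a light chain of the outer arm, to 0.38 for DNALI1 of the inner arm, with DNAH1, DNAH9, DNAH11, DNAI3 and DNAI7 between them. DNALI1 was -0.19, -0.16 and -0.42 on slide 1 and 1.16, 1.11 and 0.80 on slide 2. Its sign was thus opposite on the dye orientations, and its mean of 0.38 ± 0.17 (SD, n = 3; adjusted p = 0.262 by limma) was an average of -0.25 and 1.02. DNAI7, an inner arm protein, was lower on all 6 arrays, at -0.27, -0.12 and -0.15 on slide 1 and -0.22, -0.15 and -0.20 on slide 2. Its mean was -0.19 ± 0.06 with an adjusted p of 0.356 by limma, and it was above background for control RNA on 5 arrays and for cetrotide RNA on 3. It was thus kept through control RNA alone, which favours a ratio below 0.

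The tektins kept, TEKT1, TEKT2 and TEKT5, had mean log2 ratios from -0.10 to 0.00. SPAG6 had -0.02 on its brighter probe and -0.05 on the other kept probe. Over all 18 motile genes kept the median log2 ratio was -0.05, and it was -0.06, 0.02 and -0.04 in replicates 1, 2 and 3, beside -0.01 over all tests and over all named genes. All 18 passed the detection filter for control RNA and 13 for cetrotide RNA, so the filter favoured ratios below 0 in this class. Of these 18 genes 12 had slide means of opposite sign, beside 48.3% of all tests and 3 of 21 transport genes. In 6 of them every array of slide 1 had one sign and every array of slide 2 the other, beside 16.8% of all tests.

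**Figure D2:**
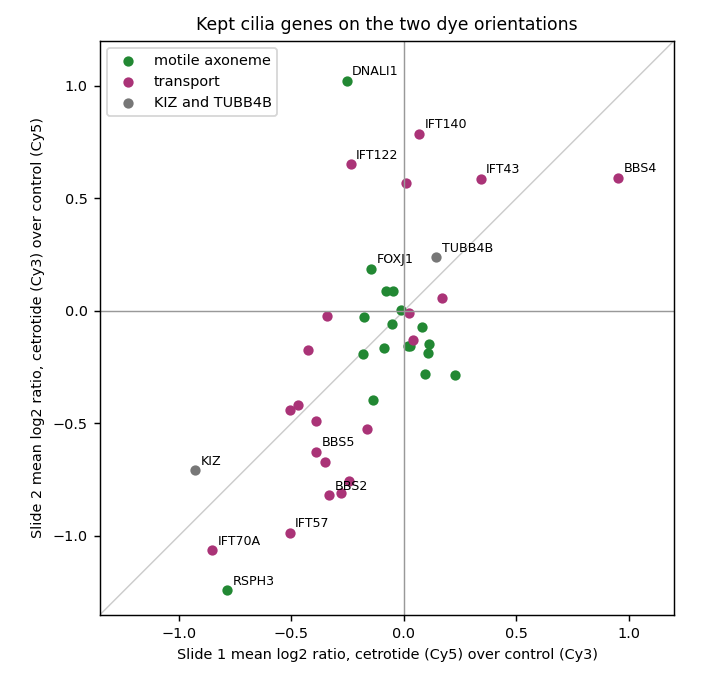
Mean log2 ratio of cetrotide over control on slide 1 (x axis) against slide 2 (y axis) for the 41 kept cilia genes, 1 point per gene, coloured by class; the grey diagonal marks equal values. RSPH3, KIZ, IFT70A and IFT57 lie low on both slides and BBS4 high on both, while DNALI1 has -0.25 on slide 1 and 1.02 on slide 2.

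KIZ (kizuna), a centrosome protein that keeps the material around the centrioles intact during mitosis, was lower on every array. Its control RNA gave 1946, 1563.8 and 1016.9 intensity units on slide 1 and 1250.3, 1064.6 and 785.7 on slide 2. Its cetrotide RNA gave 738.6, 697.3 and 439.8 on slide 1 and 988.3, 897.1 and 607.3 on slide 2. Control RNA was brighter on each array, although the ranges of the RNAs over arrays overlapped. The log2 ratio was -1.02, -0.98 and -0.78 on slide 1 and -0.78, -0.63 and -0.72 on slide 2, with a mean of -0.82 ± 0.07 (SD, n = 3), 1.76-fold lower. The adjusted p was 0.178 by limma and 0.0314 by limma with the replicate block.

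TUBB4B, a beta tubulin abundant in ciliary axonemes and present in other microtubules, went different ways between replicates. Its log2 ratio was 0.09, 0.52 and -0.18 on slide 1 and 0.06, 0.81 and -0.16 on slide 2. Replicate 2 was the highest and replicate 3 the lowest on both slides. The mean of 0.19 ± 0.43 (SD, n = 3; adjusted p = 0.738 by limma) was smaller than the spread between replicates, and without replicate 2 it was -0.05.

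Most transport genes had log2 ratios below 0. Their median log2 ratio over 21 kept genes was -0.34, with 14 genes below 0 and 7 above, beside -0.01 over all tests, of which 14589 were below 0 and 12840 above. By replicate it was -0.51, -0.02 and -0.25, and without replicate 1 it was -0.20. At an unadjusted p under 0.05, 7 transport genes (33.3%) were lower and 3 (14.3%) higher, beside 6.46% and 8% of all tests and 8.22% and 9.44% of named genes.

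**Figure D3:**
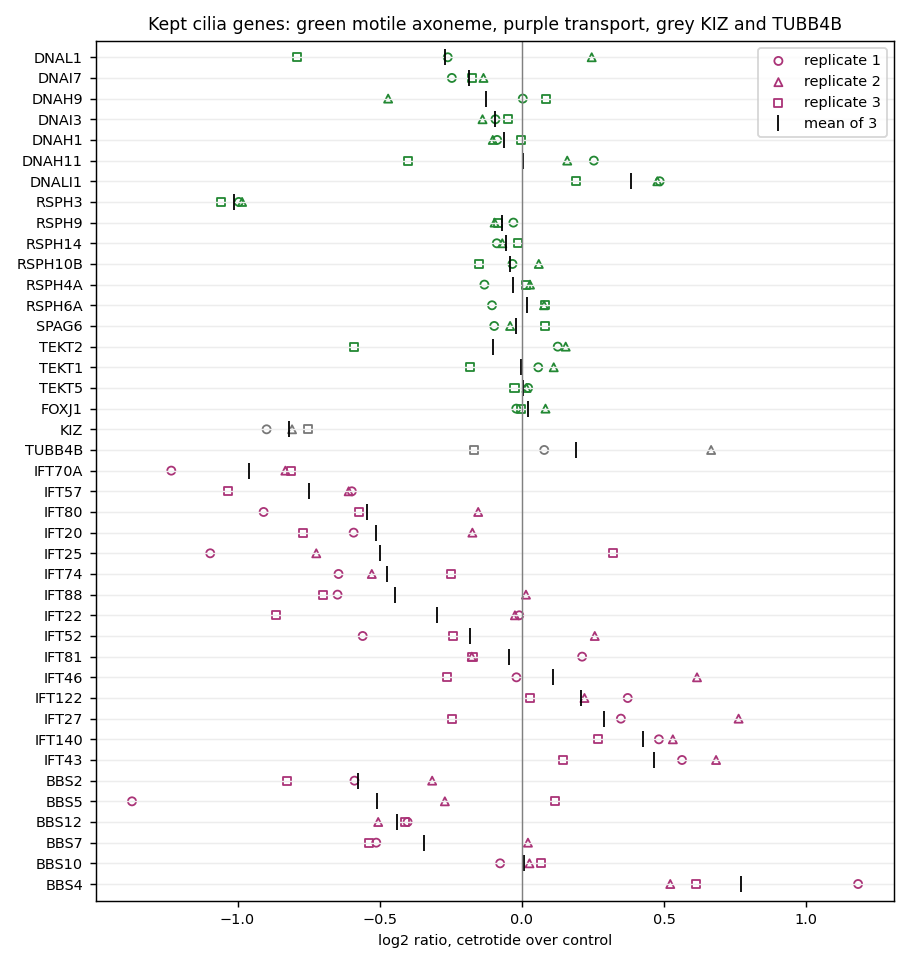
Log2 ratio of cetrotide over control (x axis) of the 41 kept cilia genes in replicates 1 (circles), 2 (triangles) and 3 (squares), with the mean of the 3 as a bar; genes are grouped by role. Most motile axoneme genes (green) lie near 0 except RSPH3 at -1.01, and transport genes (purple) run from -0.96 for IFT70A to 0.77 for BBS4.

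Within intraflagellar transport, the 12 complex B genes had a median log2 ratio of -0.46, which was -0.59, -0.16 and -0.42 in the 3 replicates. Of these, 10 were below 0, and IFT27 and IFT46 were above it. The 3 complex A genes carrying an IFT symbol, IFT43, IFT122 and IFT140, were all above 0, with a median of 0.43 that was 0.07 on slide 1 and 0.65 on slide 2. Complex A subunits with other symbols had means on the other side of 0: TTC21B had -0.79 ± 0.39 and WDR19 -1.17 ± 1.38 (SD, n = 3). WDR19 had 0.28 in replicate 2 and was above 0 on 2 of 6 arrays. It falls outside the rule for named genes, which takes up to 4 genes per list by p.

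IFT70A, a complex B subunit that holds the core of the complex, had the lowest mean of the transport genes. Its brightest probe gave 800.5, 889.1 and 833.2 intensity units for control RNA on slide 1 and 657.2, 662.5 and 718.7 on slide 2. For cetrotide RNA the values were 284.8, 451.4 and 401.8 on slide 1 and 455.6, 503.1 and 493.5 on slide 2. All control values were above all cetrotide values. The log2 ratio was -1.16, -0.76 and -0.64 on slide 1 and -1.31, -0.91 and -0.98 on slide 2. The mean was -0.96 ± 0.24 (SD, n = 3), 1.94-fold lower, with an adjusted p of 0.178 by limma and 0.0291 by limma with the replicate block. A second kept probe was lower on all 6 arrays at a mean of -0.50, and the third, below background on all arrays, had -0.07. IFT70A has a close paralog, IFT70B, and whether the probes tell them apart was not analysed here.

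IFT57, a complex B subunit at the rim of the complex, was lower on all 6 arrays. Its control RNA gave 4686.7, 2507.8 and 3068 intensity units on slide 1 and 4183.1, 2287.5 and 2974.3 on slide 2, and its cetrotide RNA gave 2834.4, 1735.1 and 1314.6 on slide 1 and 2826.3, 1538.2 and 1320.2 on slide 2. Control RNA was brighter on each array, with ranges that overlapped between arrays. The log2 ratio was -0.42, -0.33 and -0.77 on slide 1 and -0.78, -0.88 and -1.30 on slide 2. Its mean of -0.75 ± 0.25 (SD, n = 3) had an adjusted p of 0.200 by limma and 0.0418 by limma with the replicate block.

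**Figure D4:**
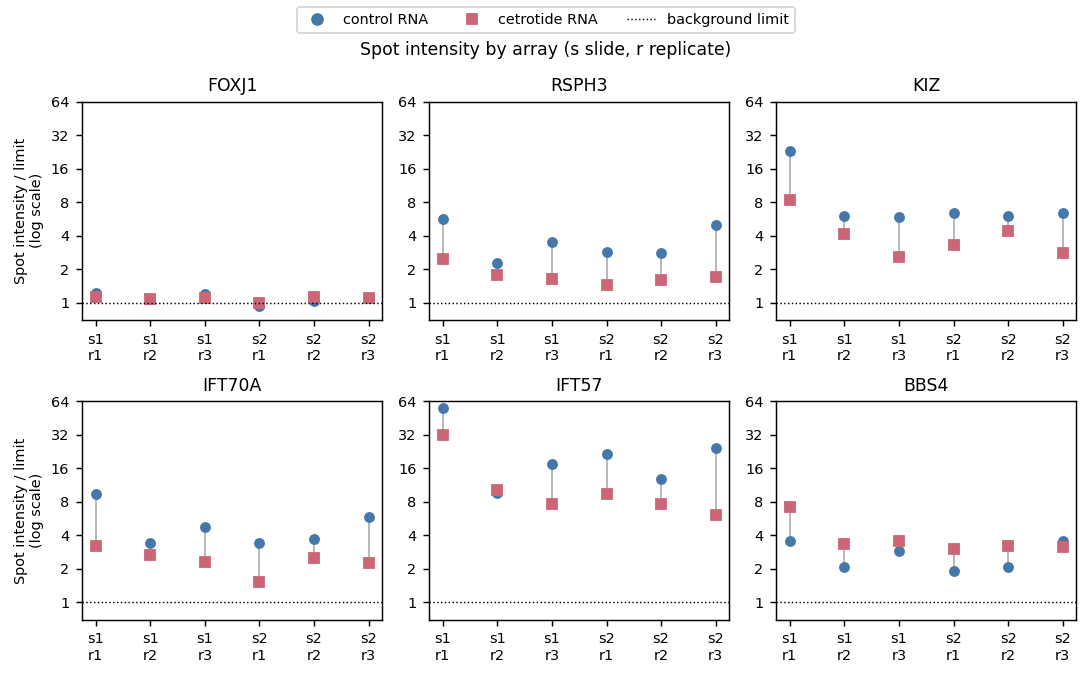
Spot intensity divided by the background limit of the same array and dye (y axis, log scale) on each array (x axis; s slide, r replicate) for control RNA (circles) and cetrotide RNA (squares) of 6 genes; for IFT70A the brightest probe is shown. FOXJ1 stays at the limit, RSPH3, KIZ and IFT70A have control RNA farther above it on every array, and the limits are not normalised between dyes, so single pairs (IFT57 on slide 1, BBS4 on slide 2) can order otherwise than the normalised ratio.

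Another 3 complex B genes were lower at an unadjusted p under 0.05. IFT74, which binds tubulin together with IFT81, had log2 ratios of -0.74, -0.54 and -0.23 on slide 1 and -0.54, -0.51 and -0.27 on slide 2. It was below 0 on all 6 arrays, with a mean of -0.47 ± 0.20 (adjusted p = 0.245 by limma), while IFT81 had -0.05 ± 0.22. IFT20, which links the complex to the Golgi, had -0.44, -0.03 and -0.58 on slide 1 and -0.74, -0.32 and -0.96 on slide 2, with a mean of -0.51 ± 0.31 (adjusted p = 0.302 by limma). The second kept IFT20 probe, with a mean of -0.01, did not share this. IFT80 had -0.71, 0.11 and -0.25 on slide 1 and -1.11, -0.42 and -0.90 on slide 2, so that 1 array was above 0. Its mean was -0.54 ± 0.38 (adjusted p = 0.337 by limma), at -0.28 on slide 1 and -0.81 on slide 2.

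The other complex B genes spread more widely between replicates than their means lay from 0, or had probes that differed. IFT88, a core subunit, had -0.44 ± 0.40 on its brighter probe and 0.00 on the other. IFT25 had probes at -0.50 and -0.58 with SDs of 0.73 and 0.69, low in replicates 1 and 2 and not in replicate 3. IFT22 had 3 kept probes, at -0.30, 0.03 and -0.10, and IFT52 had 2, at -0.18 and -0.19. IFT27 had 0.29 ± 0.51 and IFT46 0.11 ± 0.45. Of the 8 cilia genes read by more than 1 kept probe, 2 had 1 probe above 0 and another below.

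The complex A genes had higher ratios on slide 2 than on slide 1. IFT140 had log2 ratios of 0.15, 0.16 and -0.10 on slide 1 and 0.82, 0.90 and 0.64 on slide 2, and its mean was 0.43 ± 0.14 (SD, n = 3; adjusted p = 0.225 by limma). It was thus near 0 on slide 1 and high on slide 2. IFT43 had 0.49, 0.56 and -0.03 on slide 1 and 0.64, 0.81 and 0.31 on slide 2, with a mean of 0.46 ± 0.28 (adjusted p = 0.310 by limma). Replicate 3 was its lowest on both slides, and a second IFT43 probe was below background on all arrays. IFT122 had 0.21 ± 0.17, with -0.24 on slide 1 and 0.65 on slide 2.

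The 6 BBS genes kept lay on both sides of 0, with 4 below it and a median of -0.39. BBS4, the BBSome subunit that binds the centriolar satellite protein PCM1, was the only member higher on all 6 arrays. Its control RNA gave 300.3, 540.6 and 501.1 intensity units on slide 1 and 371.8, 371.1 and 435 on slide 2, and its cetrotide RNA gave 636.4, 573.5 and 613.5 on slide 1 and 901.2, 655.7 and 683.8 on slide 2. All cetrotide values were above all control values, in raw units not made comparable between dyes. Divided by the limit of their own array and dye, they overlapped, at 1.92 to 3.56 for control and 3.01 to 7.16 for cetrotide. The log2 ratio was 1.45, 0.53 and 0.87 on slide 1 and 0.92, 0.51 and 0.35 on slide 2. The mean was 0.77 ± 0.36 (SD, n = 3), 1.71-fold higher, with an adjusted p of 0.238 by limma.

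BBS2, another BBSome subunit, was lower on all 6 arrays. It had -0.45, -0.07 and -0.47 on slide 1 and -0.72, -0.56 and -1.18 on slide 2, with a mean of -0.58 ± 0.25 (adjusted p = 0.239 by limma). BBS12, a chaperonin-like protein that helps to assemble the BBSome, had -0.38, -0.48 and -0.31 on slide 1 and -0.42, -0.53 and -0.52 on slide 2. Its arrays were all low and close together, and its mean of -0.44 ± 0.06 had an adjusted p of 0.186 by limma. BBS10, its chaperonin-like relative, had 0.01 ± 0.07. BBS7 had -0.34 ± 0.32, and BBS5 had -0.51 ± 0.77, with replicate 1 at -1.37 and replicate 3 at 0.12.

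Marker lists of several cell types also had ratios away from 0, and their part in the cilia values was not tested. Of 12 epithelial markers measured, all had means above 0 on their brightest probe, with medians of 0.24, 1.15 and 3.24 in replicates 1, 2 and 3. Of these, 10 passed the detection filter for control RNA and 12 for cetrotide RNA. MUC1 and PAX8 were kept through cetrotide RNA alone, so the filter favoured ratios above 0 for them. CDH1 and CLDN3 were too dim to be kept. Second kept probes had 0.008, -0.051 and 0.155 for EPCAM and -0.076, 0.024 and -0.023 for ESRP1. The log2 of the summed levels of the epithelial list was 11.06 to 14.23 over control RNA and 13.75 to 17.43 over cetrotide RNA. Summed levels of the lists below are also given as log2, and the brightest genes of a list weigh most in them. The 10 granulosa markers measured had medians of -0.33, 0.12 and -1.11, with summed levels of 16.73 to 17.04 for control and 15.37 to 17.06 for cetrotide. The 15 markers of dividing cells, in which primary cilia are taken down before mitosis, had medians of -0.34, -0.12 and -0.86. The other lists measured were mostly above 0. The 9 endothelium markers had medians of 0.99, 0.02 and 0.66 in the replicates, with 8 genes above 0, and summed levels of 10.36 to 10.79 for control and 10.35 to 12.01 for cetrotide. The 11 theca markers had medians of 0.86, 0.07 and 0.13, with 9 above 0, and summed levels of 14 to 14.55 for control and 14.68 to 16.4 for cetrotide. Both lists were highest in replicate 1 and lowest in replicate 2, whereas the epithelial list was highest and the granulosa list lowest in replicate 3. How any list relates to the transport genes was not tested. Among the theca markers COL3A1, a collagen of stroma, had the highest mean log2 ratio, 4.58, beside a median of 0.30 over that list. It had 8.37, 0.40 and 4.98 in the replicates, and COL1A2, another collagen, was also highest in replicate 1 and lowest in replicate 2. Other theca markers moved less: INSL3 had 0.55, 0.04 and 0.13, and CYP17A1 had 0.021, -0.085 and 0.148. COL1A2 and CYP17A1 were kept through cetrotide RNA alone, each above background for control RNA on 3 arrays. PTCH1, on its brightest probe, was below 0 in all replicates. PDGFRA, on its brightest probe, was above 0 in replicate 1 and below 0 in replicates 2 and 3. The 10 leukocyte markers had medians of 0.40, 0.03 and 0.86, with 9 above 0, and summed levels of 10.74 to 12.1 for control and 11.92 to 12.51 for cetrotide. The 7 oocyte markers had a median of -0.02.

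Markers of oviduct epithelium, chiefly of its multiciliated cells, differed in detection. CAPS and AGR3 were above background on all 6 arrays for each RNA. LRRIQ1 was above it on 6 arrays for control RNA and 5 for cetrotide RNA, TPPP3 on 5 and 6, and DYDC2 on 3 and 1. Of 6 such markers with a probe 4 were kept, with a median log2 ratio of 0.25. Their summed levels, as log2, were 9.11 to 9.32 for control and 9.28 to 10.76 for cetrotide. At an unadjusted p under 0.05 by limma, 2 were higher and 0 lower, and 2 were higher on all 6 arrays, beside 8% and 7.86% higher of all tests. OVGP1, the oviduct glycoprotein, was counted in this list though it does not mark multiciliated cells, and was above background on 2 arrays for each RNA. CAPS had 0.30, 0.33 and 0.27 in the 3 replicates, whereas AGR3 had 0.37, 0.09 and 2.66 and stood out in replicate 3 alone. FOXJ1 in that replicate was 0.00, but its spots lay at the limit, where the processing draws ratios closer to 0. Its relation to AGR3 was not tested.

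**Figure D5:**
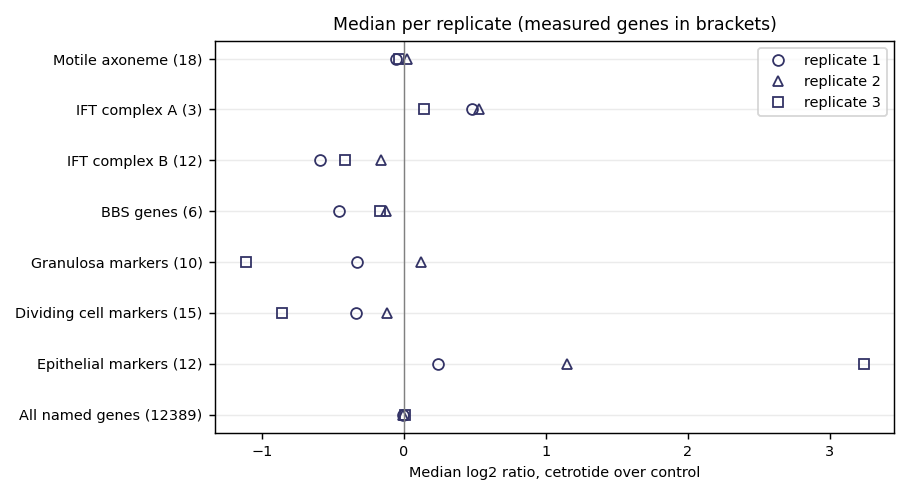
Median log2 ratio of cetrotide over control (x axis) in replicates 1 (circles), 2 (triangles) and 3 (squares) for cilia classes, marker lists and all named genes, with the number of genes measured in brackets. Complex B medians run from -0.59 to -0.16 and those of motile genes from -0.06 to 0.02, while the epithelial marker median runs from 0.24 to 3.24.

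Genes of 6 further cilia lists outside the member rule were read in the same fit, and none passed the adjusted threshold. Their counts at an unadjusted p under 0.05 stand beside 6.46% lower and 8% higher of all tests, and 8.22% and 9.44% of named genes. In the transition zone and basal body list, 5 of 39 measured genes (12.8%) were lower at that p and 1 (2.56%) was higher, with a median log2 ratio of -0.14. Proteins of the distal appendages, which dock the basal body at the membrane, lay on both sides of 0: CEP83 (-0.92 ± 0.44) and FBF1 (-0.42 ± 0.11) were lower and SCLT1 (0.32 ± 0.18) higher on all 6 arrays, while CEP164 had -0.07 ± 0.03. SCLT1 and CEP164 fall outside the rule for named genes and were chosen after their values were seen. TCTN1 of the transition zone had -0.85 ± 0.38 and CEP120, which acts in centriole elongation, -0.57 ± 0.22. In the transport list under other symbols, 3 of 23 (13%) were lower and 1 (4.35%) higher, with a median of -0.14. RAB8A, a GTPase of vesicle traffic to the cilium, had 0.47 ± 0.28, and ARL6, the GTPase that brings the BBSome to the membrane, -0.67 ± 0.41. TTC21B, given above, and RABL2B, a GTPase that binds complex B (-0.37 ± 0.17), were the others.

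The central pair and nexin-dynein list also took in other ciliary proteins, so its name does not place each gene. It had 3 of 21 measured genes (14.3%) lower and 0 higher, with a median of -0.07. CFAP36 had -1.05 ± 0.20, NME7, which is also part of the gamma-tubulin ring complex, -0.78 ± 0.08, and CFAP70 -0.39 ± 0.18. Each was lower on all 6 arrays. The arm docking and assembly list had 1 of 12 (8.33%) lower, PIH1D2 at -0.63 ± 0.39, and 1 higher, CCDC40 at 0.57 ± 0.34, with a median of -0.08. In the ciliated cell program list 1 of 12 (8.33%) was lower and 0 higher, with a median of -0.02. That gene was RFX3, a transcription factor of ciliogenesis, at -0.25 ± 0.13.

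In the list of ciliary membrane and signalling genes 1 of 25 (4%) was lower and 2 (8%) were higher, at or below the shares over all tests, with a median of -0.02. NEDD9, a scaffold that activates Aurora A when cilia are taken down, had 0.86, 0.77 and 0.87 in the 3 replicates and was higher on all 6 arrays. Its mean was 0.83 ± 0.06 (SD, n = 3) with an adjusted p of 0.178 by limma. FUZ, a planar polarity effector, had 0.26 ± 0.14, and CILK1, a kinase of the ciliary tip, -0.41 ± 0.24. CCDC40 and FUZ were each above 0 on 3 arrays and below it on 3.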

How the data were processed

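The authors deposited 1 scanner table per array. It holds intensities of each spot and of its surroundings in both dyes, as mean and as median of the pixels, uncorrected for background per the file headers. Which scanner and software made them is not given in the sources used. Per the labels' protocols, RNA was amplified over rounds of T7 transcription and labelled chemically.

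Mean intensities were corrected with normexp (offset 50), loess-normalised within each array (weight 0 for control spots), and turned to cetrotide over control, with limma 3.58.1 in R 4.3.3. Probes were kept where 1 of the RNAs exceeded background on 4 or more of the 6 arrays (31769), and a gene was read from its brightest kept probe. The offset draws the ratios of dim probes closer to 0. Gene names came from the platform annotation, 1524 of them updated through the RefSeq gene table of assembly ARS-UCD2.0. Limma's lmFit and eBayes tested the 3 averages against 0, two-sided, with Benjamini-Hochberg adjustment over 27429 tests (12389 named genes and 15040 unnamed probes) and a threshold of 0.05. The procedure was tested on simulated data.

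Deviations from the slide mean correlated across genes at 0.900, 0.934 and 0.954 for arrays of the same area and between -0.706 and -0.0076 for others, so the area numbers were taken as pairs. Since such deviations cancel within a slide, the latter values are biased downward. The block fit used duplicateCorrelation (consensus correlation 0.852) with a dye term. No source ties arrays to cows, so p-values measure only the spread between these samples, and the number of arrays limits the precision. Dye orientation and slide cannot be told apart.

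The table of processed log ratios that the authors deposited, taken here as log2, served as an alternative. Against the log2 ratios computed here its slopes were 0.828 to 0.930, and against log2 Cy5 over Cy3 it correlated on slide 2 at -0.972 to -0.920, so all columns run cetrotide over control. Its column medians were -0.00191, -0.000108, 0.000134, 0.00229, 0.00214 and 0.00748, and how it was centred and normalised is not given.

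Values on every array are given for FOXJ1, TUBB4B, KIZ and every member with 1 sign on all arrays or an unadjusted p under 0.05. Other cilia lists give up to 4 genes by p, apart from WDR19, SCLT1 and CEP164, which are named outside that rule. The members and lists were chosen with earlier results of these data known. A search for motifs in promoters, which needs sequence, was not analysed here.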

Additional observations from a re-analysis of the deposited data

Results flagged for a closer look

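For 6 cilia genes all 3 arrays of slide 1 had one sign and all 3 arrays of slide 2 the other, and these differences between the slides were not tested. The mean log2 ratio on slide 2 minus that on slide 1 was 1.28 for the inner arm dynein chain DNALI1 and 0.33 for FOXJ1. It was -0.51 for the spoke head protein RSPH4A, -0.37 for the dynein chain DNAI3, -0.29 for RSPH10B and -0.26 for SPAG6. All 6 were motile axoneme genes and 0 were transport genes. Of all 27429 tests, 16.8% had the same pattern.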

How the results depend on the processing

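The number of cilia genes at an adjusted p under 0.05 was 0 in the fit to 3 averages and 0 without any 1 replicate. It was 4 with the replicate block (RSPH3, IFT70A, KIZ and IFT57), 13 with the 6 arrays taken as independent (no replicate block), and 4 on slide 2 alone. Of all 27429 tests, 264 passed as lower and 411 as higher with the block, 1458 and 1806 without it, and 225 and 662 on slide 2 alone. The count of lower genes at an unadjusted p under 0.05 was 9, and 5 to 10 with 1 replicate left out, where 2.77% to 6.43% of all tests were lower. The count of higher genes was 4, and 2 with median centring in place of loess, 1 on slide 1 alone and 1 to 5 with 1 replicate left out. The shares of all tests in these 3 alternatives were 7.2%, 7.61% and 4.27% to 11%. The motile median of -0.05 was -0.12 with median pixel intensities, -0.15 on slide 2 alone and -0.06 to -0.03 with 1 replicate left out. The transport median of -0.34 was below 0 under all 16 alternatives, at -0.41 to -0.20 with 1 replicate left out. The count of 6 motile genes detected for control RNA on all arrays was 2 with the 99th percentile, 1 with 1.5 times the median of the negative controls and 3 with median pixel intensities. Of the 41 members, 15 had slide means of opposite sign, so that 1 slide alone turns their mean. Among the 16 members given array by array, means that changed sign were those of DNALI1 on slide 1 alone (-0.25), of FOXJ1 on slide 1 alone (-0.15) and without replicate 2 (-0.011 to 0.040 over the replicates left out), and of TUBB4B without replicate 2 (-0.045 to 0.37). RSPH3 ran from -1.24 to -0.79 and KIZ from -0.94 to -0.71 over their alternatives. Updated symbols were first meant as an alternative but were used throughout, and the platform table's own symbols became an alternative chosen after seeing the data. The cause of these changes was not tested. Low signal over background limits most motile genes.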
